A study of Mus musculus with 16 samples.

Results

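Androgen-responsive genes were followed here as a set of 10 named genes: Tmprss2, Slc45a3, Fkbp5, Sgk1, Hpgd, Ndrg1, Steap4, Eaf2, Ell2 and Herc3. They were listed by name as genes known to answer to androgen, and the list was made with earlier results of these data known. Counts of members beside the share of all genes are therefore descriptions. All 10 of the 10 listed genes had a probe, 15 probes in all, among 16593 genes with a single symbol on the array. Each gene is given by its probe with the highest mean over 16 arrays, and the other probes of a gene are given beside it.

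Androgens act through a steroid receptor that enters the nucleus, binds palindromic response elements and raises transcription of nearby genes. In the prostate this program is carried mainly by luminal secretory epithelium, and its transcripts are used as a readout of androgen signalling. The glucocorticoid receptor binds much the same element, so several of these genes, among them Fkbp5 and Sgk1, also answer to glucocorticoids. Ndrg1 is known as a hypoxia- and stress-responsive gene as well.

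RNA was hybridised to 16 Illumina mouse bead arrays. TRAMP mice carry SV40 T antigen under the probasin promoter, which is active in prostate epithelium and itself depends on androgen, so the transgene is driven by the hormone pathway described here. The carcinoma groups were 3 neuroendocrine carcinomas (NECa) of TRAMP mice given AGN, a root extract of Angelica gigas Nakai, and 3 NECa of vehicle-treated TRAMP mice, set against 2 whole prostates of wild-type (WT) mice of 24 to 28 weeks. Both WT prostates are labelled TRAMP as strain and wild type as genotype, and they are used as WT. Dorsal-lateral prostate (DLP) came from TRAMP mice given D/DA (decursin and decursinol angelate, pyranocoumarins of the same root), AGN or vehicle and from WT mice of strain C57BL/6, with 1 array each at 28 and at 16 weeks. The design text counts 13 and 11 mice for D/DA and 14 and 10 for AGN at 28 and 16 weeks, and does not say whether RNA was pooled. Doses and the ages of the carcinoma mice are not given in the sources used here.

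Values are normalized probe intensities on a linear scale. The median of an array lay between 151 and 166 and its lowest value between 113 and 139, so an intensity near 150 is read here as background, and differences of genes near it are compressed. The labelled tissues carried their markers: 13 neuroendocrine markers summed to 17398 to 24183 in NECa and 3035 to 3633 in WT prostate, and 13 luminal markers to 2021 to 3360 in NECa and 31441 to 33665 in WT prostate. Of the luminal markers, 6 to 12 of 13 were at or below 200 on a NECa array, and 2 of 13 in both WT prostates. Some arrays stood apart from their group. Vehicle NECa 1 had the highest mean levels of several lists on the log2 scale: fibroblast markers 9.57 against 7.78 to 8.71 in the other 5 NECa, smooth muscle 10.25 against 7.90 to 9.19, macrophage 9.53 against 8.28 to 8.63 and basal 8.29 against 7.44 to 7.60. AGN NECa 2 had the highest luminal mean among NECa, 7.88. Skeletal muscle markers averaged 12.18 and 9.17 in the WT prostates, and 12.02 at 28 weeks and 8.63 at 16 weeks in WT DLP. The part of these differences in the results below was not tested beyond leaving arrays out.

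**Figure D1:**
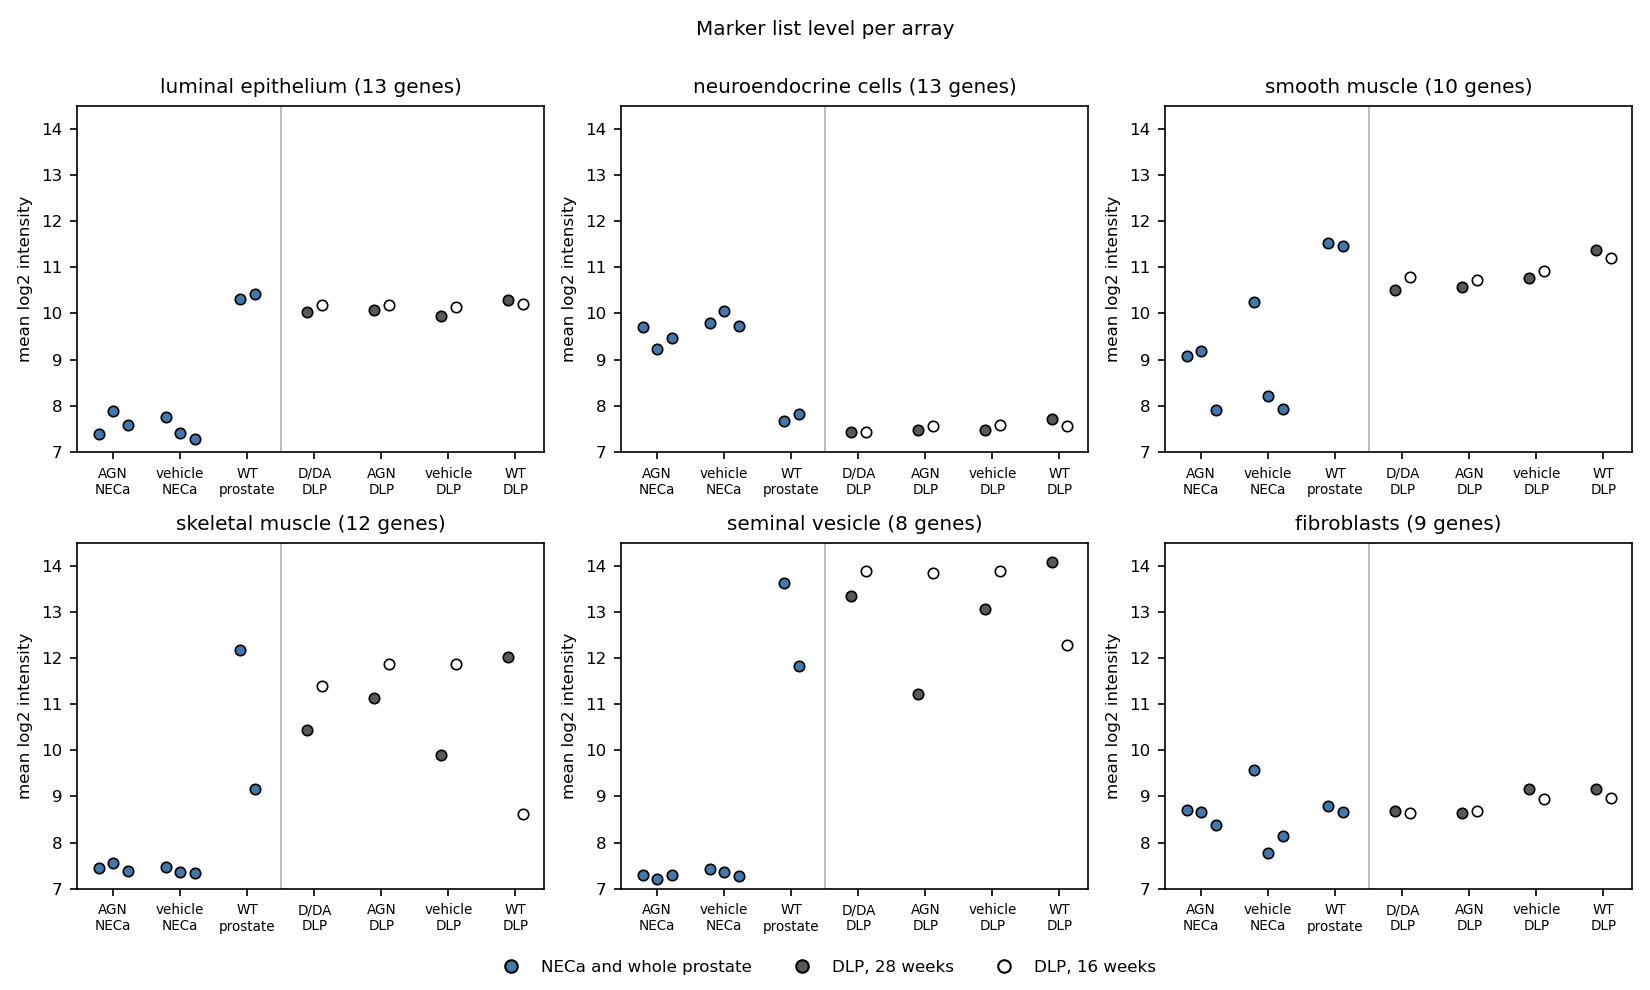
Mean log2 intensity of 6 marker lists on each of 16 arrays, by group, with DLP at 28 weeks (grey) and 16 weeks (open). Luminal markers sit between 7.27 and 7.88 in NECa and between 9.94 and 10.42 on the other arrays, while skeletal muscle and seminal vesicle markers differ widely between the arrays of WT prostate and of WT DLP.

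Promoter windows of the set were searched for the androgen response element, the sequence that the receptor binds. RefSeq windows of assembly GRCm38.p6, 250 bases before to 50 after each annotated start, were available for 9 of the 10 genes and 17 starts, and none for Ndrg1. The motifs were the single arm AGAACA and the full element, made of AGAACA, 3 free bases and TGTTCT, on both strands, so that every full element also holds an arm on each strand. The arm occurred in 19% of all 32851 windows and the full element in 3 windows, 0.00913%. Among the members only Sgk1 held a match: 3 of its 6 windows had an arm, and 1 of them had the full element 189 bases before the start. That window (chr10:21993640-21993939, plus strand) is printed as the 1 member window with a full element, and the Tmprss2 window (chr16:97611146-97611445, minus strand) as the member with a large drop in both carcinoma and TRAMP DLP and no match. Capitals mark the matches. Absence of a match says only that these letters are not in this window.
Sgk1: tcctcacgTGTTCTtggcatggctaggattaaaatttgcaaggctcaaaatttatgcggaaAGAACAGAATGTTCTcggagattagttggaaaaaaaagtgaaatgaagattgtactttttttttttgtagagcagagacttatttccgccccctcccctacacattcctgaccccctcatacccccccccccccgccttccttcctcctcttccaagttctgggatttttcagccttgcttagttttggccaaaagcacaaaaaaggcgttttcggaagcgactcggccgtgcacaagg
Tmprss2: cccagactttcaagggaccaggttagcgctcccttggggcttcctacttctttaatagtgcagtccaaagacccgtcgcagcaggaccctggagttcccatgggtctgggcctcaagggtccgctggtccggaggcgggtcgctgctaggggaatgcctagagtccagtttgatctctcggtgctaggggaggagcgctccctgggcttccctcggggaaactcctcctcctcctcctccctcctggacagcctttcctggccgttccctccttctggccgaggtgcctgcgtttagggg

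Of the 10 genes, 6 reached an intensity above 200 on some array, and 4 did not. In NECa 5 of the 10 genes were called lower than in WT prostate, against 18.8% (vehicle) and 19.3% (AGN) of all genes. In vehicle NECa the protease gene Tmprss2 was 25.5-fold lower and the kinase gene Sgk1 35.5-fold lower, while Ndrg1 was not called. In DLP, vehicle TRAMP tissue was called lower than WT tissue in 4 of the 10 genes, against 5.15% of all genes. These were Tmprss2, Sgk1, Hpgd and Ndrg1, by 1.49-fold to 2.51-fold, and each of these calls depended on the setting. AGN moved no member past the threshold in NECa or DLP, and neither did D/DA in DLP. Fewer cells of a type and less RNA per cell cannot be told apart in tissue RNA.

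**Figure D2:**
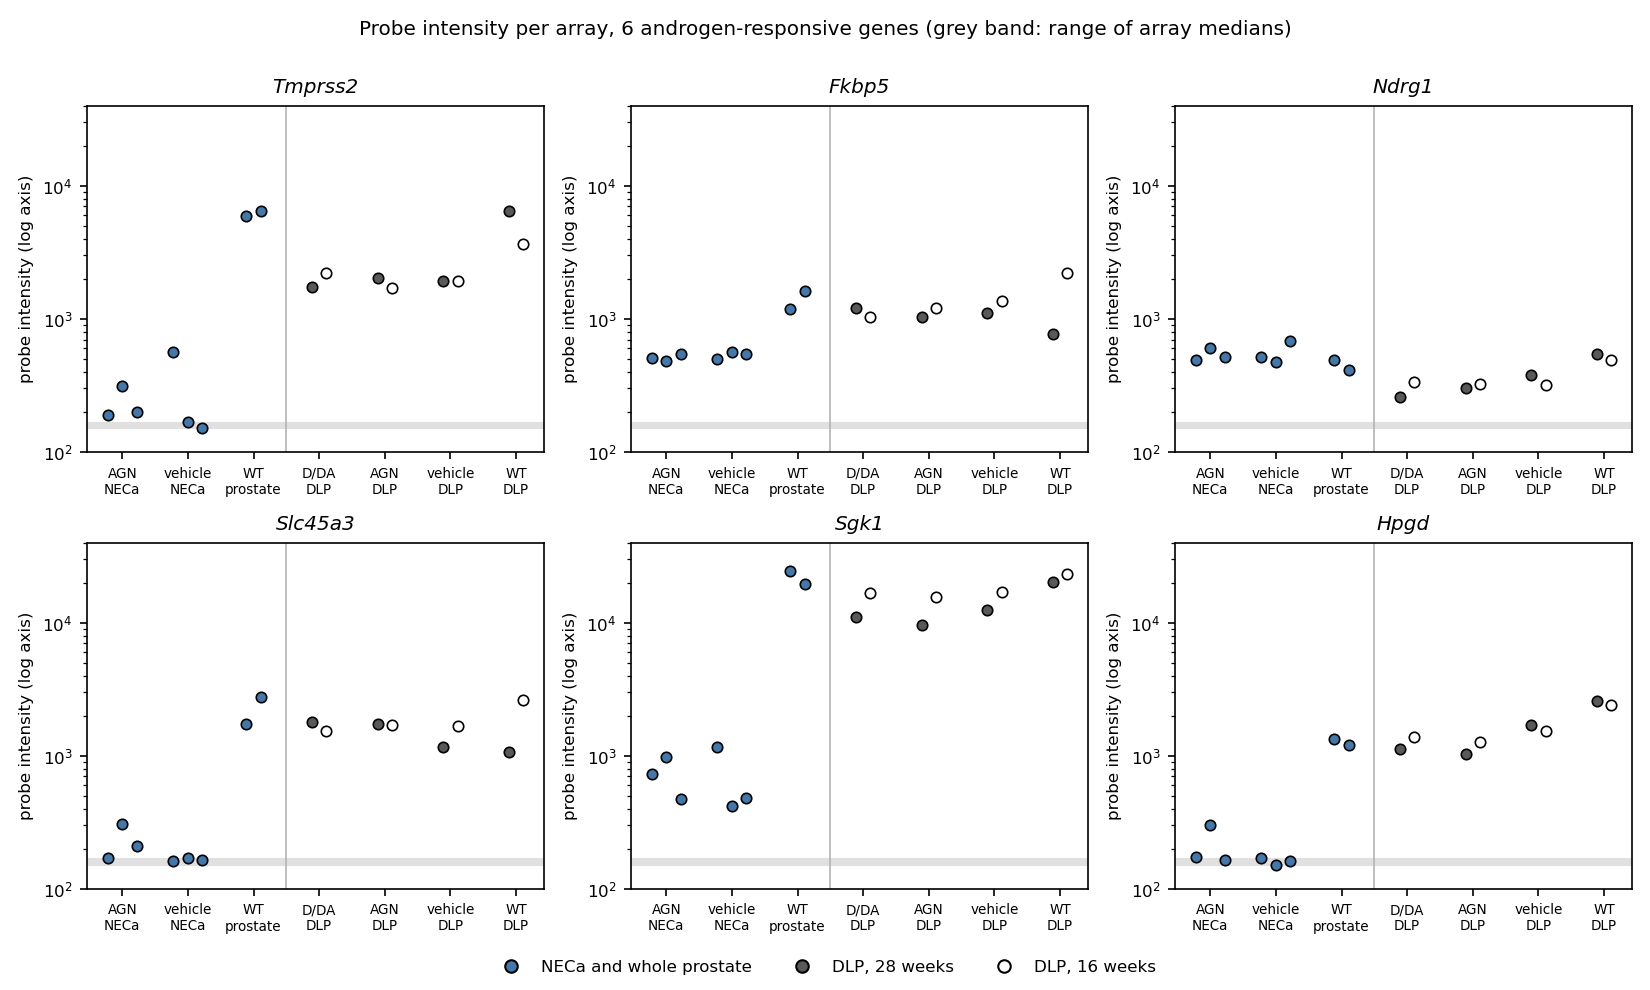
Probe intensity (log axis) of 6 androgen-responsive genes on each of 16 arrays, left of the line AGN NECa, vehicle NECa and WT prostate, right of it DLP of D/DA, AGN, vehicle and WT mice at 28 weeks (grey) and 16 weeks (open). The grey band is the range of array medians, 151 to 166. Tmprss2, Slc45a3 and Hpgd lie at or near this band in most NECa, Fkbp5 and Sgk1 stay above it, and the main probe of Ndrg1 is lowest in TRAMP DLP.

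The first question was how the program compared between carcinoma and normal prostate. In vehicle NECa 5 of 10 members were called lower (limma, p adjusted by Benjamini-Hochberg across every probe, threshold 0.05), against 18.8% of all genes, and 0 were called higher. In AGN NECa the same 5 members were called lower, against 19.3% of all genes. The comparisons share the WT arrays, so the second is no separate evidence for the first. The median log2 difference over the 10 members was -0.74 in vehicle NECa and -0.76 in AGN NECa, and over all genes -0.01 and 0.03.

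Tmprss2 encodes a membrane-anchored serine protease of luminal cells, and in human prostate cancer its androgen-driven promoter is often fused to ETS factor genes. Its intensity was 189, 315 and 198 in AGN NECa and 565, 169 and 152 in vehicle NECa, against 5965 and 6468 in WT prostate. All 6 carcinomas lay far below both WT prostates, and vehicle NECa 1, the carcinoma array highest in fibroblast, smooth muscle, macrophage and basal markers, was the highest of them. The log2 difference was -4.77 ± 0.45 in AGN NECa (SE; adjusted p = 8.64e-06) and -4.67 ± 0.45 in vehicle NECa (adjusted p = 1.09e-05). Without vehicle NECa 1 and AGN NECa 2 it was -5.28 in vehicle NECa, so the drop was as large without the arrays that stood apart.

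Slc45a3 encodes prostein, a prostate-enriched membrane protein of the solute carrier families whose human gene is another fusion partner. It gave 171, 306 and 208 in AGN NECa and 162, 170 and 163 in vehicle NECa, against 1746 and 2756 in WT prostate. The 3 vehicle carcinomas sat at the array median, at background, and AGN NECa 2 was the highest carcinoma. The log2 difference was -3.31 ± 0.24 in AGN NECa (adjusted p = 1.01e-06) and -3.73 ± 0.24 in vehicle NECa (adjusted p = 4.03e-07).

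Sgk1 encodes a serum- and glucocorticoid-regulated kinase that acts on ion channels and transporters, and it is the member with the full element printed above. Its intensity was 730, 982 and 474 in AGN NECa and 1166, 419 and 480 in vehicle NECa, against 24502 and 19550 in WT prostate. It stayed above background in every carcinoma, again highest in vehicle NECa 1, yet no carcinoma came near a WT prostate. The log2 difference was -4.97 ± 0.40 in AGN NECa (adjusted p = 2.52e-06) and -5.15 ± 0.40 in vehicle NECa (adjusted p = 1.94e-06). Its rank against Tmprss2 cannot be read, since most Tmprss2 values in carcinoma lay near background, where differences are compressed.

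Hpgd encodes 15-hydroxyprostaglandin dehydrogenase, which inactivates prostaglandins. It gave 172, 304 and 166 in AGN NECa and 170, 152 and 161 in vehicle NECa, against 1332 and 1196 in WT prostate. Apart from AGN NECa 2, the carcinomas sat at background. The log2 difference was -2.62 ± 0.22 in AGN NECa (adjusted p = 3.36e-06) and -2.97 ± 0.22 in vehicle NECa (adjusted p = 1.28e-06). Both differences are compressed where the carcinoma values lie at background.

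Fkbp5 encodes an immunophilin that works with Hsp90 on steroid receptors and feeds back on their activity. Its intensity was 509, 479 and 544 in AGN NECa and 502, 563 and 547 in vehicle NECa, against 1193 and 1611 in WT prostate. Here the carcinomas were uniform and clearly above background. The drop was 2.72-fold in AGN NECa (log2 difference -1.44 ± 0.16, adjusted p = 3.57e-05) and 2.58-fold in vehicle NECa (-1.37 ± 0.16, adjusted p = 5.65e-05), the mildest of the 5.

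Ndrg1 encodes a cytoplasmic stress-response protein named for its repression by N-myc. Its main probe gave 488, 606 and 519 in AGN NECa and 518, 477 and 681 in vehicle NECa, against 490 and 415 in WT prostate. The groups overlapped. The log2 difference was 0.25 in AGN NECa (95% confidence interval -0.15 to 0.64, adjusted p = 0.359) and 0.29 in vehicle NECa (-0.10 to 0.69, adjusted p = 0.298). Its second probe gave 406 to 446 in AGN NECa and 340 to 481 in vehicle NECa against 335 and 346 in WT prostate, and was not called in AGN NECa (adjusted p = 0.139) or vehicle NECa (adjusted p = 0.409).

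The remaining 4 genes could not be read on these arrays. Steap4, a metalloreductase gene, Eaf2 and Ell2, whose products belong to the ELL group of transcription elongation factors, and Herc3, a HECT-domain ubiquitin ligase gene, had 8 probes together. Their intensities ran from 125 to 167 for Steap4, 131 to 170 for Eaf2, 140 to 160 for Ell2 and 134 to 189 for Herc3 over all 16 arrays. No tissue, treatment or age lifted any of the 8 probes above 200, WT prostate included, and none of the 4 genes was called in any of the comparisons with its main probe. A difference in these genes was not detectable at this signal.

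**Figure D3:**
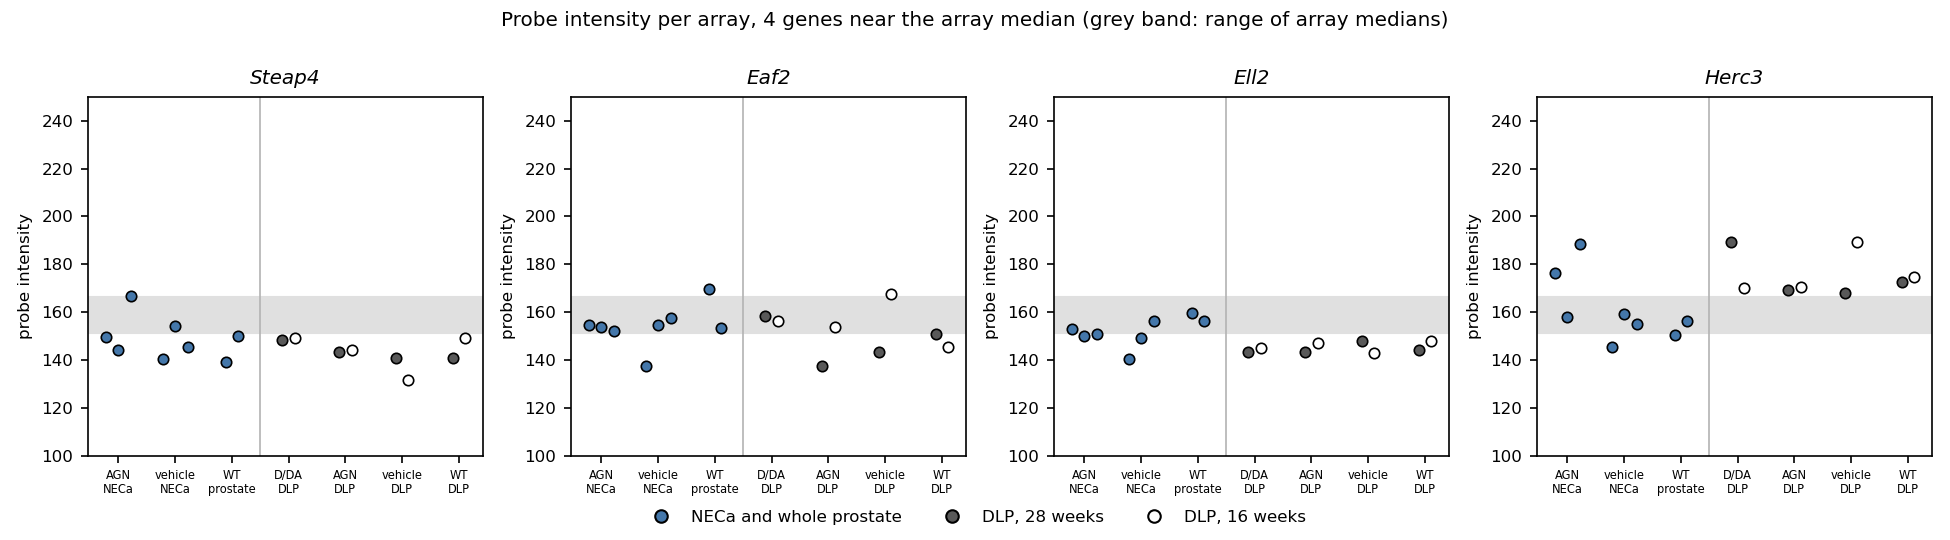
Probe intensity (linear axis) of the main probes of Steap4, Eaf2, Ell2 and Herc3 on each of 16 arrays, by group. All points lie between 131 and 189, near the grey band of array medians (151 to 166), with Herc3 in DLP just above it.

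Several marker lists moved with the carcinoma result, and others did not. Of 13 luminal markers 11 were called lower and 0 higher in vehicle NECa, with a median log2 difference of -2.93, and 11 were called lower in AGN NECa, with a median of -2.78. Of 10 smooth muscle markers 9 were called lower in AGN NECa and 10 in vehicle NECa. Of 8 seminal vesicle markers 7 were called lower in both, and the list's median log2 difference was -5.92 (AGN NECa) and -5.98 (vehicle NECa). Of 12 skeletal muscle markers 11 were called lower in both, with medians of -2.90 and -2.96. Of 8 basal markers 6 were called lower in AGN NECa and 5 in vehicle NECa, and of 10 adipocyte markers 7 in both. Of 9 fibroblast markers 2 were called lower in both, and 1 higher in AGN NECa (medians -0.02 and 0.13). Of 9 macrophage markers 1 was called lower in both, and 1 higher in vehicle NECa (medians 0.16 and 0.41). Of 10 endothelial markers 2 were called lower in AGN NECa and 0 in vehicle NECa (medians -0.12 and -0.04). The part of these lists in the members' drop was not tested. Foxa1, a pioneer factor of luminal epithelium, differed from most luminal markers. It gave 2838 to 3293 in AGN NECa and 2427 to 4138 in vehicle NECa, against 1931 to 3015 in WT prostate. Foxa1 was not called (adjusted p = 0.353 and 0.408). Hoxb13 and Nr3c1, the glucocorticoid receptor gene, stayed near background.

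A wider list of androgen-responsive genes was lower in summed level, with genes called in both directions. The list summed to 51669 to 56267 in AGN NECa and 51161 to 55937 in vehicle NECa, against 112357 to 125720 in WT prostate, and every carcinoma lay below both WT prostates. Of 75 measured genes outside the 10 members, 29 were called lower and 7 higher in AGN NECa, and 28 lower and 5 higher in vehicle NECa. Over all genes 19.3% were called lower and 14.1% higher in AGN NECa, and 18.8% lower and 12.8% higher in vehicle NECa. The list's share called higher was thus below that of all genes. Its median log2 differences were -0.04 and -0.08, and 18 of its genes never exceeded 200. Azgp1, a secreted lipid-mobilising glycoprotein gene, had 157 to 651 in AGN NECa and 143 to 150 in vehicle NECa, against 15840 to 23750 in WT prostate. Its log2 difference in vehicle NECa was -7.05 ± 0.44 (adjusted p = 3.48e-07). The desaturase gene Scd1 and the cyclin D1 gene Ccnd1 were called lower there too, with log2 differences of -4.55 and -4.52. In the other direction Cenpn, a centromere protein gene, had 862 to 994 in AGN NECa and 732 to 1115 in vehicle NECa, against 160 to 173 in WT prostate, with a log2 difference of 2.50 ± 0.19 in vehicle NECa (adjusted p = 1.30e-06). Of 15 glucocorticoid-responsive genes 11 were called lower and 1 higher in AGN NECa, and 9 lower and 1 higher in vehicle NECa. Of 22 hypoxia-responsive genes 5 were called lower and 2 higher in AGN NECa, and 4 lower and 2 higher in vehicle NECa. The share of hypoxia-responsive genes called lower was near that of all genes.

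**Figure D4:**
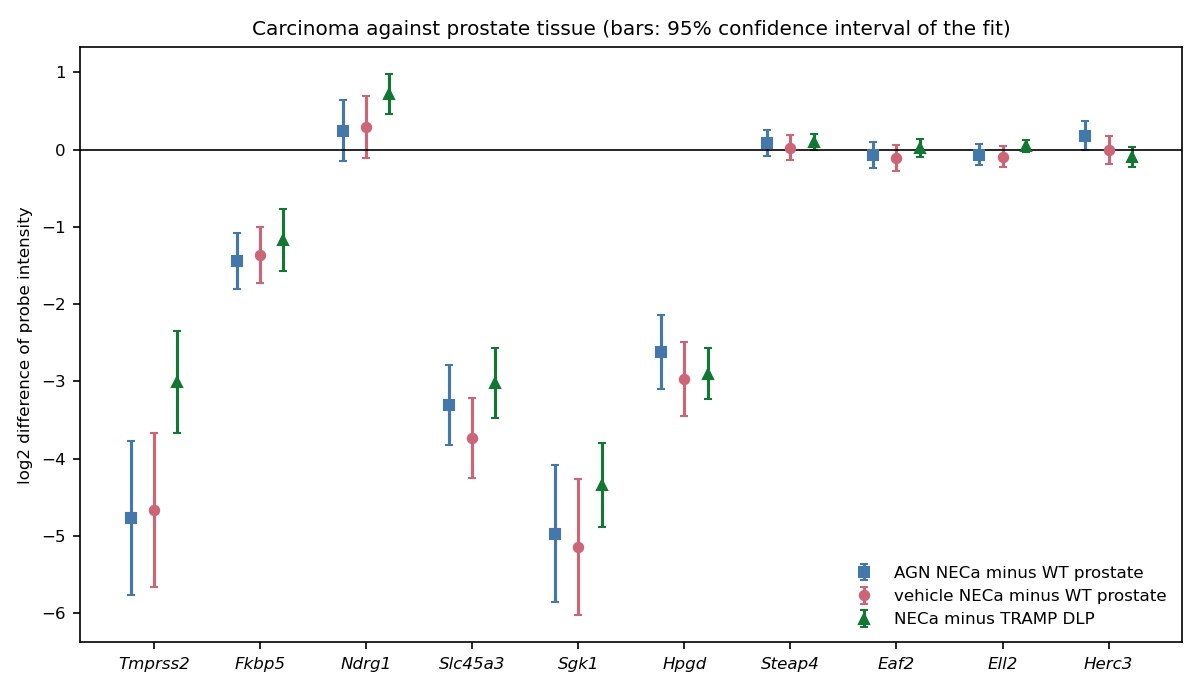
Log2 differences of the 10 genes for AGN NECa minus WT prostate, vehicle NECa minus WT prostate and NECa minus TRAMP DLP, with 95% confidence intervals of the fit. The intervals of Tmprss2, Fkbp5, Slc45a3, Sgk1 and Hpgd lie below 0 in all 3 comparisons, that of Ndrg1 lies above 0 only against TRAMP DLP, and the 4 genes near background lie close to 0.

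The carcinomas were also set against prostate of the same transgenic background. For this comparison the 6 NECa were compared with the 4 AGN and vehicle DLP arrays of TRAMP mice in a fit of all 16 arrays. No tissue was measured in both the carcinoma part and the DLP part of the series, and the carcinoma ages are not given. Tissue cannot be told apart from other differences between these parts. The same 5 members were called lower, against 20.9% of all genes. Ndrg1 was called higher, 1 of 10 against 53.7% of all genes, and that background is itself moved by scaling: the median of all genes was 0.12 here, and the share called higher was 23.3% after quantile normalization. Tmprss2 ranged from 152 to 565 in NECa and 1701 to 2029 in these DLP arrays, a log2 difference of -3.01 ± 0.31 (adjusted p = 1.50e-06). Sgk1 ranged from 419 to 1166 in NECa and 9604 to 16881 in DLP, a log2 difference of -4.34 ± 0.25 (adjusted p = 4.73e-09). The gaps were wide in both genes. Slc45a3 (-3.02 ± 0.21), Hpgd (-2.90 ± 0.15) and Fkbp5 (-1.17 ± 0.19) were lower as well.

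Ndrg1 ran the other way, with 477 to 681 in NECa and 304 to 379 in AGN and vehicle DLP, and the groups did not overlap. Its log2 difference was 0.72 ± 0.12 (adjusted p = 0.00018), and 0.63 after median centring of the arrays (adjusted p = 0.000914). The second probe gave 340 to 481 in NECa and 294 to 400 in DLP, which overlapped, and a difference of 0.18 ± 0.10 (adjusted p = 0.12), so the probes of Ndrg1 disagreed on whether this comparison passed. Of the 75 other androgen-responsive genes, 33 were called lower and 28 higher in the same comparison, against 20.9% and 53.7% of all genes.

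The next comparison was between TRAMP and normal DLP. In vehicle TRAMP DLP 4 of 10 members were called lower than in WT DLP, against 5.15% of all genes, and 0 were called higher. The comparison set 2 vehicle against 2 WT arrays, 1 per age, within a fit of all 8 DLP arrays with treatment and age as terms. Its 3 residual degrees of freedom thus also draw on the AGN and D/DA arrays. They also hold any dependence of an effect on age. In the 75 other androgen-responsive genes 5 were called lower and 5 higher, against 5.15% and 3.41% of all genes.

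Tmprss2 gave 1941 at 28 weeks and 1939 at 16 weeks in vehicle DLP, against 6476 and 3655 in WT DLP. Both vehicle values lay below both WT values, and the gap was wider at 28 weeks, where the log2 difference was -1.74, than at 16 weeks, where it was -0.91. Over both ages it was -1.33 ± 0.24 (adjusted p = 0.0139). Of the 4 calls this was the firmest: it was lost only with all 16 arrays in 1 fit (adjusted p = 0.159) and without either vehicle DLP array, where 1 vehicle array remained and the adjusted p was 0.0799 or 0.119.

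Hpgd gave 1705 and 1521 in vehicle DLP at 28 and 16 weeks, against 2588 and 2417 in WT DLP. Sgk1 gave 12480 and 16881 in vehicle DLP, against 20353 and 23270 in WT DLP. Ndrg1 gave 379 and 319 in vehicle DLP, against 549 and 487 in WT DLP. In all 3 genes both vehicle arrays lay below both WT arrays. Over both ages the log2 difference was -0.63 ± 0.16 for Hpgd (adjusted p = 0.0434), -0.58 ± 0.14 for Sgk1 (adjusted p = 0.041) and -0.57 ± 0.15 for Ndrg1 (adjusted p = 0.0493). These 3 calls sat just under the threshold, and each was lost after quantile normalization (adjusted p = 0.089, 0.0895 and 0.0524). The second Ndrg1 probe was lower in the same direction, -0.35 ± 0.12, and was not called (adjusted p = 0.115).

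Fkbp5 and Slc45a3 did not follow. Fkbp5 gave 1112 and 1371 in vehicle DLP at 28 and 16 weeks, against 764 and 2209 in WT DLP. Slc45a3 gave 1169 and 1677 in vehicle DLP, against 1067 and 2620 in WT DLP. In both genes the spread lay in the WT arrays, whose 28-week value was well under their 16-week value, so that the vehicle arrays fell between them. The log2 difference of Fkbp5 was -0.07 over both ages (95% confidence interval -0.83 to 0.68, adjusted p = 0.902), and that of Slc45a3 was -0.26 (-0.95 to 0.44, adjusted p = 0.604). The answer turned on a single WT array: without WT DLP at 28 weeks both genes were called lower (Fkbp5 -0.79, adjusted p = 0.0248, and Slc45a3 -0.86, adjusted p = 0.0309), and without WT DLP at 16 weeks Fkbp5 was called higher (0.64, adjusted p = 0.045). The same WT arrays differed in skeletal muscle and seminal vesicle markers, which averaged 12.02 and 14.09 at 28 weeks and 8.63 and 12.27 at 16 weeks on the log2 scale. The part of these markers in the result was not tested.

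Luminal markers overlapped between these groups in their sum, 26463 to 29999 in vehicle DLP and 27004 to 28618 in WT DLP, but not in their mean on the log2 scale, 9.94 and 10.15 in vehicle DLP against 10.20 and 10.28 in WT DLP. Of 13 luminal markers 2 were called lower and 2 higher. Adipocyte markers summed to 3520 to 9034 in vehicle DLP and 1550 to 3027 in WT DLP, and 5 of 10 passed as higher and 0 as lower (median log2 difference 0.46). Of 10 endothelial markers 2 were called lower and 0 higher. Smooth muscle markers summed to 51206 to 58313 in vehicle DLP and 71372 to 81592 in WT DLP, and 1 of 10 was called lower. The part of these lists in the members' differences was not tested. Among the other androgen-responsive genes, Azgp1 (log2 difference -1.36), Ccnd1 (-1.26) and Bmpr1b, a BMP receptor gene (-0.93), were called lower, and Ncoa4, a nuclear receptor coactivator and ferritin-autophagy gene (1.26), Scd1 (1.15) and Tnfaip8 (1.09) were called higher. Foxa1 gave 2666 to 3053 in vehicle DLP and 1937 to 1994 in WT DLP, a difference of 0.54 ± 0.14 that was not called (adjusted p = 0.052).

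**Figure D5:**
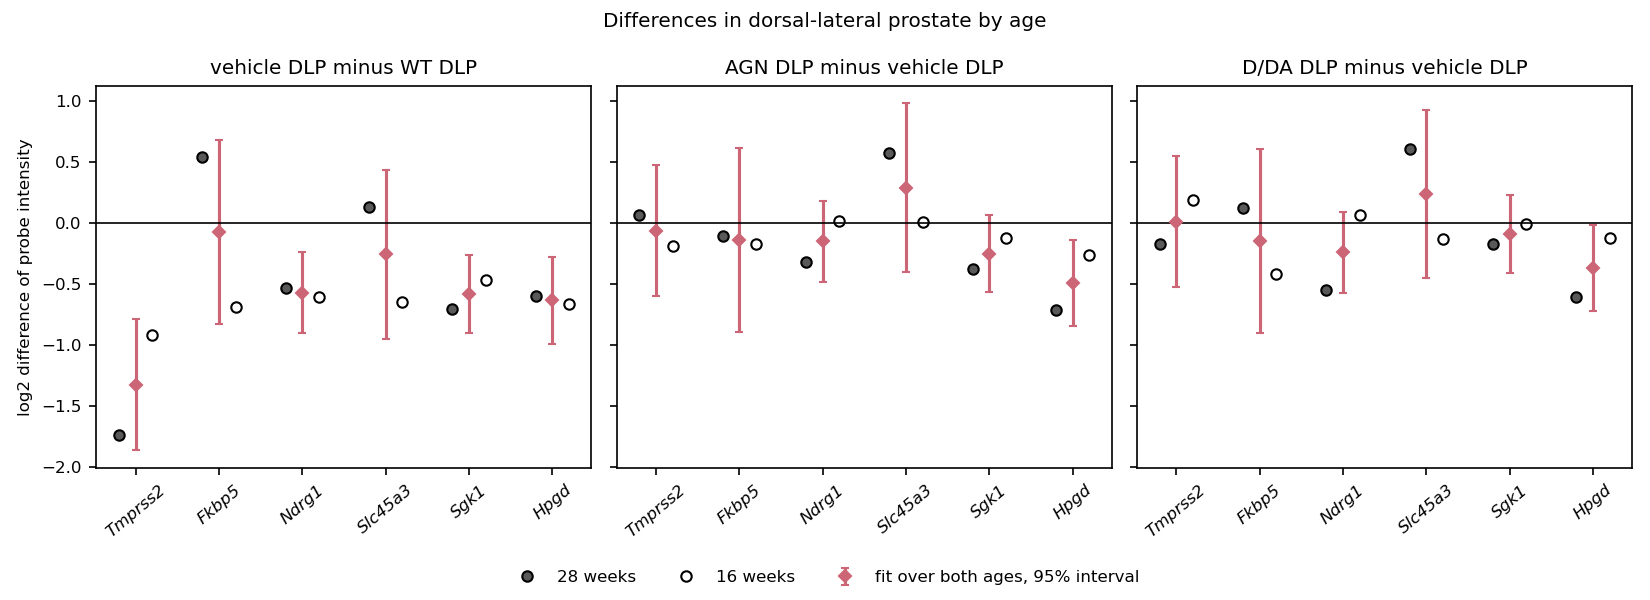
Log2 differences of 6 genes in DLP at 28 weeks (grey), at 16 weeks (open) and over both ages (red, with the 95% confidence interval of the fit), for vehicle minus WT, AGN minus vehicle and D/DA minus vehicle. Tmprss2, Ndrg1, Sgk1 and Hpgd are below 0 at both ages in TRAMP tissue, Fkbp5 changes sign with age (0.54 at 28 weeks and -0.69 at 16 weeks), and the treatment intervals include 0 for 5 of the 6 genes.

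Treatment was compared first within carcinomas. Between AGN NECa and vehicle NECa 0 of 10 members were called, against 0.0603% of all genes, and 2 of 10 had an unadjusted p under 0.05. One was Slc45a3, whose values of 171, 306 and 208 in AGN NECa all lay just above the 162, 170 and 163 of vehicle NECa. Its log2 difference was 0.42 ± 0.17 (95% confidence interval 0.05 to 0.80, adjusted p = 0.72), and without AGN NECa 2, the array with the highest luminal level, it was 0.19. The other was Herc3, at 158 to 188 in AGN NECa and 145 to 159 in vehicle NECa, which is background. For the members above background in every carcinoma the intervals were -0.36 to 0.21 for Fkbp5, -0.41 to 0.32 for Ndrg1 and -0.63 to 0.98 for Sgk1. For Tmprss2 and Hpgd they were -1.0 to 0.81 and -0.07 to 0.77. Hpgd lay at background in the carcinomas except AGN NECa 2, and most Tmprss2 values in carcinoma lay near it. The intervals of Tmprss2 and Hpgd are therefore compressed and do not bound an AGN effect. The Tmprss2 interval already leaves room for a drop near 2-fold, and the Sgk1 interval leaves room for a rise near 2-fold. Of the 75 other androgen-responsive genes 0 were called.

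In DLP 0 of 10 members were called for AGN against vehicle, against 0% of all genes, and 0 for D/DA against vehicle, also against 0%. At an unadjusted p under 0.05 the counts were 1 and 2. Hpgd was the member in common. It gave 1120 and 1394 in D/DA DLP and 1037 and 1267 in AGN DLP at 28 and 16 weeks, against 1705 and 1521 in vehicle DLP. All 4 treated values lay below both vehicle values, and further below at 28 weeks than at 16. The log2 difference was -0.37 ± 0.16 for D/DA (95% confidence interval -0.72 to -0.01, adjusted p = 0.582) and -0.49 ± 0.16 for AGN (-0.84 to -0.14, adjusted p = 0.935). Both treatments were compared with the same vehicle arrays, and neither result passed. The Steap4 probe made up the second D/DA count, at background level.

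The other members gave no called difference under treatment. Tmprss2 was 1726 and 2216 in D/DA DLP and 2029 and 1701 in AGN DLP, against 1941 and 1939 in vehicle DLP, with intervals of -0.53 to 0.55 for D/DA and -0.60 to 0.48 for AGN. Sgk1 was 11080 and 16752 in D/DA DLP and 9604 and 15516 in AGN DLP, against 12480 and 16881 in vehicle DLP, with intervals of -0.41 to 0.23 and -0.57 to 0.07. For Tmprss2 the treated values lay on both sides of the vehicle value of the same age. For Sgk1 all 4 treated values lay below it, by log2 differences of -0.17 and -0.01 for D/DA and -0.38 and -0.12 for AGN at 28 and 16 weeks. Slc45a3 was 1783 and 1534 in D/DA DLP and 1739 and 1688 in AGN DLP, against 1169 and 1677 in vehicle DLP, and Fkbp5 was 1212 and 1027 in D/DA DLP and 1033 and 1215 in AGN DLP, against 1112 and 1371. Ndrg1 was 259 and 335 in D/DA DLP and 304 and 324 in AGN DLP, against 379 and 319. The purified pyranocoumarins and the whole extract were compared directly as well: between D/DA and AGN DLP 0 of 10 members were called, against 0%, and 0 had an unadjusted p under 0.05. The widest of these intervals for a member above background was that of Fkbp5, -0.76 to 0.75, and for Hpgd the interval was -0.23 to 0.48.

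Whether AGN acted differently in carcinoma and in DLP was tested as an interaction over 16 arrays. Of the 10 members 0 were called, against 0.0241%, and 1 had an unadjusted p under 0.05. That was Hpgd, whose log2 difference under AGN was 0.35 in NECa and -0.49 in DLP, with a difference between them of 0.84 ± 0.31 (adjusted p = 0.818). AGN NECa 2 was the only carcinoma with Hpgd above 200, and without it the Hpgd difference in NECa was 0.07.

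Age was compared in DLP over 4 pairs of arrays. At 28 weeks 0 of 10 members were called relative to 16 weeks, against 0.0964% of all genes, and 1 had an unadjusted p under 0.05. Sgk1 was lower at 28 weeks in all 4 pairs, with log2 differences of -0.60 in D/DA, -0.69 in AGN, -0.44 in vehicle and -0.19 in WT. Over the 4 pairs this was -0.48 ± 0.10 and not called (adjusted p = 0.189). In the 6 TRAMP arrays alone it was -0.57 and called (adjusted p = 0.012). That subset leaves out the WT pair, the smallest of the 4 differences, so it is no separate evidence of an age difference. In TRAMP DLP the signs differed between treatments in Fkbp5, at 0.24 in D/DA, -0.23 in AGN and -0.30 in vehicle, and in Slc45a3, at 0.22, 0.04 and -0.52. In WT DLP Fkbp5 and Slc45a3 differed by -1.53 and -1.30 between the 2 arrays. In WT DLP Tmprss2 ran the opposite way, 0.83 higher at 28 weeks. No replicate of WT DLP exists at either age, so these differences between 2 arrays have no test.

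Normal whole prostate and normal DLP were compared as well. These groups also differ in strain label and in age (24 to 28 weeks against 16 and 28 weeks). No tissue was measured in both the carcinoma part and the DLP part of the series. Tissue cannot be told apart from these differences. Hpgd was called lower in whole prostate, 1 of 10 against 2.57% of all genes, with 1332 and 1196 in WT prostate and 2588 and 2417 in WT DLP. Its log2 difference was -0.99 ± 0.24 (adjusted p = 0.0275). The call was lost after quantile normalization and without any 1 of the 4 WT arrays. The intervals of the other members above background were wide, such as -0.67 to 1.38 for Tmprss2 and -0.84 to 0.86 for Sgk1.

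Across tissues the order of levels within each gene can be read from the medians. Tmprss2 had its highest median in WT prostate (6217), then WT DLP (5065), then TRAMP DLP (1940) and NECa (194), and the ranges of WT prostate and WT DLP overlapped. Sgk1 had medians of 22026 in WT prostate and 21812 in WT DLP, and the WT DLP range lay inside that of WT prostate. Its TRAMP DLP came below both, and NECa lowest. Hpgd was highest in WT DLP, and its TRAMP DLP and WT prostate ranges overlapped. In Slc45a3 and Fkbp5 the 3 prostate tissues overlapped with one another, and only NECa stood clear below them. The main probe of Ndrg1 had its lowest median in TRAMP DLP, while its second probe had 361.8 there and 340.7 in WT prostate.

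Which members resembled one another differed between all tissues and DLP alone. As a description over all 16 arrays, which share the tissue contrast, log2 values of Tmprss2 and Sgk1 correlated at r = 0.97, Sgk1 and Hpgd at 0.97 and Fkbp5 and Slc45a3 at 0.94, while Ndrg1 gave -0.43 with Tmprss2, -0.52 with Hpgd and -0.57 with Sgk1. Over the 8 DLP arrays alone there were 2 patterns. Tmprss2, Ndrg1 and Hpgd went together (r = 0.85 to 0.95), and Fkbp5 went with Slc45a3 (0.87), while Tmprss2 and Fkbp5 gave -0.17. Sgk1 was nearer the first pattern, at 0.83 with Hpgd, 0.76 with Ndrg1 and 0.67 with Tmprss2. It gave 0.32 with Fkbp5 and 0.14 with Slc45a3. These 8 arrays share the contrast of WT with TRAMP DLP. In both WT arrays Tmprss2, Ndrg1 and Hpgd lay above every TRAMP DLP array. Fkbp5 and Slc45a3 had their highest DLP value in WT at 16 weeks and their lowest in WT at 28 weeks. The 2 patterns are thus a description that includes the WT arrays, and correlations within TRAMP DLP alone were not computed. The genes most like each member over 16 arrays, among 9052 genes above the median level, were Rab29 for Tmprss2 (r = 0.99), Pdp2 for Slc45a3 (0.99), Itprid2 for Sgk1 (0.99), Cnpy2 for Hpgd (0.99), Cyp2b10 for Fkbp5 (0.96) and Rab28 for Ndrg1 (0.94).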

How the data were processed

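Per the labels' protocols, total RNA of tissue was extracted, turned into biotinylated cRNA and hybridised to Illumina arrays. The values used are the authors' deposited probe intensity values, 25697 probes on 16 arrays, on a linear scale and already normalized. Per the submitters' processing notes lumi was used, and the normalization and background steps are not given in the sources used here. A second deposited table with 32 columns of per-sample values matched no label and was not used, so no detection call entered.

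The log2 of each intensity entered limma 3.58.1 (R 4.3.3; lmFit, eBayes with intensity trend, two-sided). P-values were adjusted over 25697 probes by Benjamini-Hochberg, and calls were made under 0.05. Carcinoma against WT prostate used 8 arrays, AGN against vehicle carcinoma 6, DLP an additive fit of treatment and age over 8, and comparisons across both parts all 16. The steps were tested on simulated data. The DLP contrasts hold 1 array per group and age. Errors are standard errors of the fit. The labels do not say whether arrays came from separate animals, so p-values measure the spread between these arrays, and their number limits the precision.

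The members and gene lists were chosen with earlier results of these data known. The 10 members are named throughout, and from the wider androgen list the called genes with the 3 largest positive and negative differences per comparison may be named. Probes take their gene from the platform annotation (23978 of 25697 have 1 symbol). A gene was called near background if no array passed 200. Same-numbered AGN and vehicle carcinomas deviated together with r = -0.04, -0.26 and 0.16, so no pairing by number was seen. The highest value, 0.32, was between AGN NECa 2 and vehicle NECa 1. With 3 arrays per group these values cannot exclude a pairing.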

Additional observations from a re-analysis of the deposited data

Results flagged for a closer look

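In DLP the difference between vehicle TRAMP and WT tissue in Fkbp5 had opposite signs at the 2 ages, 0.54 on the log2 scale at 28 weeks and -0.69 at 16 weeks. Each value compares 1 array with 1 array, and the difference between the ages was not tested. Members were marked where both values reached 0.5 in opposite directions, a limit chosen with the values known.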

How the results depend on the processing

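Of 188 values of called members under alternatives other than leaving out an array, 165 kept direction and side of the threshold and 23 lost the call. Leaving out 1 array gave 224 values, of which 201 kept both and 23 lost the call. None changed direction. The 5 drops in NECa against WT prostate and against TRAMP DLP kept their calls without any 1 array. In vehicle against WT DLP the count called lower, 4, became 1 after quantile normalization, median centring or array weights, with the mean over all probes, or at a log2 difference of at least 1. It became 2 after normexp background correction and 0 with all 16 arrays in 1 fit, and leaving out 1 array gave 0 to 4 called lower and 0 to 1 called higher. The shares of all genes called lower were 3.32% (quantile normalization), 3% (median centring), 2.51% (array weights) and 3.6% (normexp). In WT prostate against WT DLP the count called lower was 0 after quantile normalization, normexp or array weights and at a difference of at least 1, and 0 to 1 without 1 array. Counts called higher in NECa against TRAMP DLP were 3 of 10 with array weights, where 63.1% of all genes were called higher. They were 2 with the mean over probes or without vehicle NECa 1 and AGN NECa 2, 0 at a difference of at least 1, and 1 to 2 without 1 array. At 28 against 16 weeks 1 member, Sgk1, was called lower with array weights (0.337% of all genes) or in the 6 TRAMP arrays, and 0 to 1 without 1 array. With array weights 1 member was called higher in vehicle NECa against WT prostate, where 18.7% of all genes were called higher. In AGN against vehicle NECa 1 member was called higher and 1 lower, against 7.96% and 5.59% of all genes. In AGN NECa against WT prostate 1 was called higher without the 2 arrays that stood apart, and 0 to 1 without 1 array.

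With the replicate number as a block, 1 member, Slc45a3, was called higher in AGN against vehicle NECa (adjusted p = 0.0291). No pairing of the carcinomas by number was seen, though so few arrays cannot exclude it. No other count of members changed under the block.

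Normexp moved the median of all genes to -0.23 in AGN NECa and -0.21 in vehicle NECa against WT prostate, with 40.7% and 37.9% of genes called lower. Signal near background limits Steap4, Eaf2, Ell2 and Herc3 in every comparison and compresses the drops of Tmprss2, Slc45a3 and Hpgd. The causes of these changes were not tested.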
